A study of Mus musculus with 8 samples.

Results

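The matrix metalloproteases (MMPs), the ADAMTS proteases, the ADAMTS-like (ADAMTSL) proteins and the tissue inhibitors of metalloproteases (TIMPs) were described in Hepa 1-6, a mouse hepatoma cell line, with and without a knockout of G9a. All protein-coding genes whose symbols are Mmp, Timp, Adamts or Adamtsl followed by a number were taken, which gave 50 genes of the 47434 measured (21792 protein-coding): 22 MMP, 4 TIMP, 19 ADAMTS and 5 ADAMTSL genes. The rule for the genes reads their symbols. There were 4 poly-A RNA libraries labelled as G9a knockout (G9a_KO) and 4 labelled as wild type (WT), and the labels name no treatment for either. G9a, encoded by Ehmt2, is a histone methyltransferase whose mark on H3 lysine 9 is found on silent chromatin. The labels do not give the lesion, how many knockout clones were used, or whether replicates were grown apart, so each p-value reflects only how these 8 libraries vary, which could be technical. The targeted gene, Ehmt2, had 116.7, 116.7, 119.8 and 118.8 counts per 1000000 (CPM) in G9a_KO libraries, against 345.4, 307.1, 297.6 and 306.6 CPM in WT libraries, so its RNA was reduced in every knockout library and still present (log2 fold change -1.41 ± 0.05). Library totals were between 58256100 and 75025236 counts, and correlations of log CPM lay between 0.9826 and 0.9875 within groups.

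MMPs are zinc-dependent proteases that cut collagens, proteoglycans and other proteins outside the cell. Most are secreted as inactive proenzymes, and a membrane-anchored group led by MMP14 acts at the cell surface, where MMP14 together with TIMP2 activates proMMP2. ADAMTS proteases carry thrombospondin repeats and cut procollagens, hyalectan proteoglycans or von Willebrand factor, while ADAMTSL proteins share the repeats but lack the protease domain and bind fibrillin microfibrils. TIMPs bind the active site of MMPs, and in the liver these enzymes and inhibitors are known for the turnover of scar matrix and for tumor invasion.

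The 100 bases before the RefSeq start of 8 genes (GRCm38.p6) are shown because 6 of them lie in the MMP cluster of chromosome 9, where the largest rise was found, and 2 are strongly rising genes elsewhere. Capitals mark 3 motifs, each searched on both strands: the AP-1 site TGANTCA, which reads the same on either strand, the TATA box TATAAA, and the GC box GGGCGG, which is CCGCCC on the other strand. Mmp3 (chr9:7445722-7445821, + strand), Mmp10 (chr9:7502242-7502341, + strand), Mmp13 (chr9:7272414-7272513, + strand) and Mmp1b (chr9:7388027-7388126, - strand) rose in the knockout. Mmp7 (chr9:7691990-7692089, + strand, the first of its annotated starts) and Mmp8 (chr9:7558329-7558428, + strand) had no counts in any library. Timp2 (chr11:118355412-118355511, - strand) and Adamtsl3 (chr7:82335594-82335693, + strand) also rose. The gene positions given below come from another annotation (GENCODE). By it, the Timp2 stretch lies wholly, and the Mmp1b stretch partly, inside its own gene. Each sequence is written 5′ to 3′ on the strand of its gene and ends at the base before the start.
Mmp3: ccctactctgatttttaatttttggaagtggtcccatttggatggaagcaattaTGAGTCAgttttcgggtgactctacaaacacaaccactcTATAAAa
Mmp10: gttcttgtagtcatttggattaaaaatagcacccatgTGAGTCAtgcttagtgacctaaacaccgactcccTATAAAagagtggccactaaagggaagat
Mmp13: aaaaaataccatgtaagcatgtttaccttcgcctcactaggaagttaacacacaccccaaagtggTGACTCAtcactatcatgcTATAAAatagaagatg
Mmp1b: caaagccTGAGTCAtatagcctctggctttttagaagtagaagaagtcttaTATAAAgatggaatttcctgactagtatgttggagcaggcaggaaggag
Mmp7: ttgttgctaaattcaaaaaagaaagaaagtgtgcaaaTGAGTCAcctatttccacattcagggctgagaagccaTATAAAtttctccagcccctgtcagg
Mmp8: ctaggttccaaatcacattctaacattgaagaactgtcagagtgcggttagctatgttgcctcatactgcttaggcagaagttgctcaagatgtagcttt
Timp2: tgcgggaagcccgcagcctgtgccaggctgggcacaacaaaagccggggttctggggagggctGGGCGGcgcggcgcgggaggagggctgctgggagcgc
Adamtsl3: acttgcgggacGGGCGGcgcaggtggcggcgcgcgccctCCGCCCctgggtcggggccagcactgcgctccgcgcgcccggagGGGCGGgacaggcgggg

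A promoter was matched for 35 of the 50 genes. In the 250 bases before the start, an AP-1 site was found in 7 of the 9 cluster genes and in 0 of the other 26 genes, against 6.75% of all 32851 promoters. The TATA box was found in 6 of 9 cluster genes and 3 of 26 others (12.4% of all promoters), and the GC box in 0 of 9 and 20 of 26 (32.7% of all promoters). The first base of the AP-1 site lay 46 bases before the start in Mmp3, 63 in Mmp10, 35 in Mmp13 and 93 in Mmp1b. It also lay 63 bases before the start in Mmp7, so the letters were present in a gene without counts as well as in the rising genes, and were absent from the window of Mmp8. CpG dinucleotides numbered between 0 and 7 in the cluster promoters and between 1 and 39 in the others, with medians of 1 and 15, against 6 over all promoters. A match is a description of the sequence and not evidence that a factor binds.

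The comparison asked how the loss of G9a changed the RNA of these genes. In the edgeR quasi-likelihood test, 25 of the 50 genes had enough counts to be tested, and 18 were higher, 4 lower and 3 not called in G9a_KO libraries at an adjusted p under 0.05. Over all 15840 genes tested, 47.2% were called, 23.6% higher and 23.6% lower, a balance that depended on the scaling: 3742 genes were higher and 3734 lower with TMM, against 4543 and 2742 with library totals and 4313 and 3011 with upper quartile scaling. At a change of at least 2-fold, 10 genes of these families were higher and 2 lower, against 7.89% and 2.36% of all genes tested. In 20 of the 25, the G9a_KO and WT libraries did not overlap, which was so for 43.9% of all genes tested. The median log2 fold change (G9a_KO minus WT) was 0.58 over the 25 and 0.0037 over all genes tested. By family, 2 of 2 tested TIMP genes were higher; 8 of 11 MMP genes were higher and 2 lower; 5 of 8 ADAMTS genes were higher and 1 lower; and 3 of 4 ADAMTSL genes were higher and 1 lower.

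**Figure D1:**
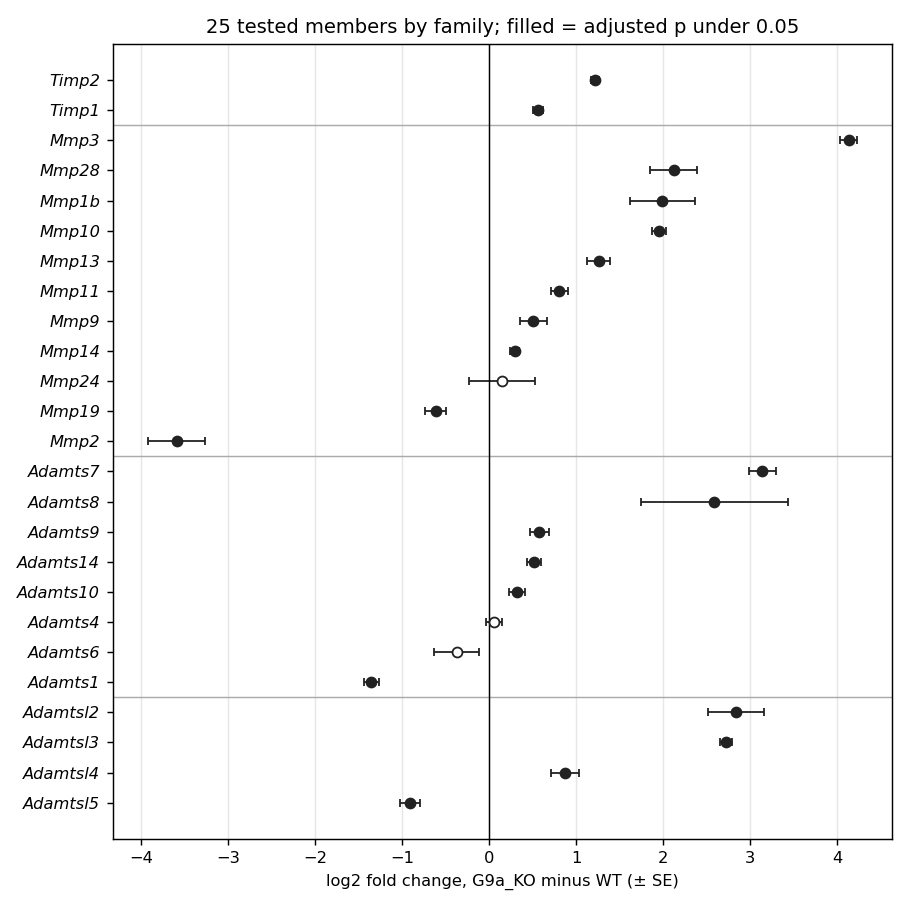
Log2 fold change (G9a_KO minus WT, x axis) of the 25 tested genes, grouped as TIMP, MMP, ADAMTS and ADAMTSL, with bars of 1 SE and filled points at an adjusted p under 0.05. The points run between -3.59 for Mmp2 and 4.13 for Mmp3, and 18 filled points lie right of 0 and 4 left of it.

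The filter asked for about 0.148 CPM in 4 libraries. Of the 25, 22 reached it in all libraries of both groups, and of these 16 were higher and 3 lower. Adamts8 and Mmp1b reached it throughout G9a_KO but not throughout WT, and Mmp2 the other way round, so these 3 could pass through 1 group alone. All CPM below are TMM-normalized, each group has n = 4, and errors of means are SD. In bulk RNA, a change in the number of cells that express a gene and a change in RNA per cell cannot be told apart.

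Both measured inhibitors rose. Timp2 (chr11:118301069-118355740, - strand, GRCm38 as are all gene positions), which inhibits MMPs and also presents proMMP2 to MMP14, had 276.4, 281.7, 263.5 and 267 CPM in G9a_KO libraries, against 114.8, 121.6, 115.2 and 117.1 CPM in WT libraries. The 2 groups lay far apart. The log2 fold change was 1.22 ± 0.04 (SE; edgeR, adjusted p = 3.39e-10), a 2.32-fold difference. Timp1, a broad MMP inhibitor that binds MMP14 poorly, had 101.5, 90.9, 104.1 and 104.5 CPM in G9a_KO libraries, against 71.6, 65.8, 65.0 and 69.2 CPM in WT libraries. The groups did not overlap, and the log2 fold change was 0.56 ± 0.06 (edgeR, adjusted p = 2.94e-06). Timp1 lies on the X chromosome inside Syn1 on the opposite strand, with which it shares no exon bases. Timp3, the matrix-bound inhibitor, had 8 and 4 counts in all over the 4 G9a_KO and the 4 WT libraries, and Timp4 had 0 and 4, so neither could be tested.

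The MMP cluster of chromosome 9 (GRCm38, bases 7272514 to 7699585, 427.1 kb) holds 9 of the 50 genes, among them the collagenase and stromelysin genes. All 4 that could be tested rose. Mmp3 (chr9:7445822-7455975, + strand), stromelysin-1, which cuts proteoglycans and activates other proMMPs, had 39.9, 35.8, 39.4 and 37.9 CPM in G9a_KO libraries, against 2.07, 2.6, 1.91 and 2.14 CPM in WT libraries. This was the largest change among the 25 genes, at 17.5-fold and a log2 fold change of 4.13 ± 0.10 (edgeR, adjusted p = 5.82e-12). Mmp10, stromelysin-2, had 25.2, 23.8, 24.8 and 26.2 CPM in G9a_KO libraries, against 5.81, 7.05, 6.70 and 6.30 CPM in WT libraries. Its log2 fold change was 1.95 ± 0.08 (edgeR, adjusted p = 1.05e-09), and the groups were well apart.

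Mmp13, the main fibrillar collagenase of rodents, had 7.71, 7.73, 8.56 and 8.06 CPM in G9a_KO libraries, against 2.90, 3.47, 2.88 and 4.13 CPM in WT libraries. It rose by 1.26 ± 0.13 on the log2 scale (edgeR, adjusted p = 3.87e-06), without overlap. Mmp1b, a rodent relative of human interstitial collagenase, had 1.91, 2.35, 1.77 and 1.82 CPM in G9a_KO libraries, against 0.69, 0.68, 0.48 and 0.13 CPM in WT libraries. Its log2 fold change was 1.99 ± 0.38 (edgeR, adjusted p = 0.000681), with a wide error because the WT libraries held 8 to 45 counts. Mmp12, macrophage elastase, had 21 counts over the G9a_KO libraries and 5 over the WT libraries, and its exons share 157 bases with those of Mmp1b on the opposite strand. Mmp27 had 4 and 5 counts. Mmp8, Mmp20 and Mmp7 had 0 counts in all 8 libraries. Mmp1a, annotated as a polymorphic pseudogene and so not among the 50, lies between Mmp3 and Mmp10 and was also higher, at 1.94 CPM in G9a_KO against 0.135 CPM in WT libraries (log2 fold change 3.80 ± 0.51; edgeR, adjusted p = 3.74e-05). Mmp1a averaged under the filter's 0.148 CPM in WT libraries, so it could pass through G9a_KO alone. Mmp1a and Mmp1b are close homologues, so reads of one could have been counted for the other, and both values are uncertain to that extent.

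Among the 5 nearest tested genes on each side of the cluster, 5 were higher, 1 lower and 4 not called, with a median log2 fold change of 0.11. The nearest on the left, Dcun1d5, was not called (0.047 ± 0.05), and the nearest on the right, Tmem123, was lower (-0.23 ± 0.04; edgeR, adjusted p = 0.000483). The caspase genes Casp4 and Casp12, farther to the left, were higher by 2.41 ± 0.18 and 4.29 ± 0.37. Birc3, an inhibitor of apoptosis to the right, was higher by 0.50 ± 0.09, while its neighbor Birc2 was not called (0.021 ± 0.07).

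**Figure D2:**
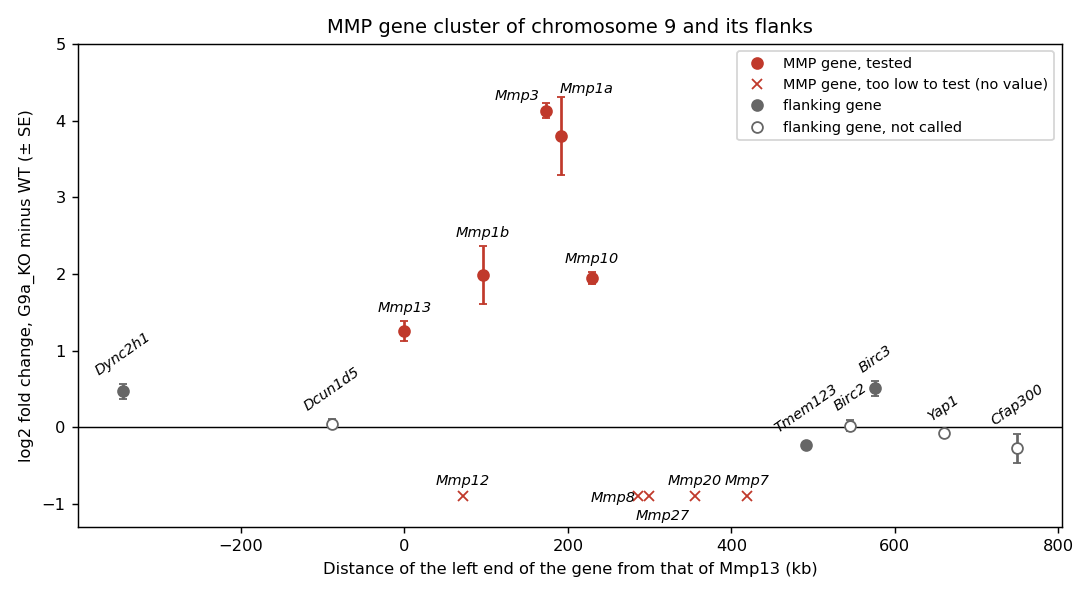
Log2 fold change (G9a_KO minus WT, ± SE) against distance in kb from Mmp13 for the 10 MMP genes of the chromosome 9 cluster (red) and the nearer tested flanking genes (grey). The flanking genes Msantd4 (0.17), Casp4 (2.41) and Casp12 (4.29), farther to the left, are not drawn. The 5 tested MMP genes, Mmp1a included, lie between 1.26 and 4.13, and the nearest flanking genes on either side lie near 0. Of these MMP genes, Mmp1a and Mmp1b could pass the filter through G9a_KO alone. Crosses mark genes too low to test and carry no value.

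Outside the cluster, 4 further MMP genes rose and 2 fell. Mmp14 (chr14:54431612-54445364, + strand), the membrane-anchored collagenase, was the MMP RNA of the highest level per length in both groups, with 176.9, 184.4, 174.9 and 183.1 CPM in G9a_KO libraries, against 159.3, 144.4, 137.2 and 145.4 CPM in WT libraries. The groups did not overlap, but the change was small at 0.30 ± 0.05 on the log2 scale (edgeR, adjusted p = 0.000318). Mmp2, gelatinase A, the proenzyme that MMP14 and TIMP2 activate, had 15, 17, 4 and 13 counts in G9a_KO libraries, against 147, 157, 135 and 112 counts in WT libraries. That is 0.20, 0.25, 0.07 and 0.18 CPM in G9a_KO libraries, against 2.40, 2.38, 1.96 and 1.78 CPM in WT libraries. Mmp2 was low in WT libraries and lower still in every G9a_KO library, with a log2 fold change of -3.59 ± 0.33 (edgeR, adjusted p = 1.14e-06).

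Mmp9, gelatinase B, had 4.81, 5.11, 6.04 and 6.14 CPM in G9a_KO libraries, against 3.80, 3.50, 3.22 and 5.02 CPM in WT libraries. One WT library lay within the G9a_KO range, and the log2 fold change was 0.51 ± 0.15 (edgeR, adjusted p = 0.0148). The other tested genes within 5 Mb of Mmp9 on chromosome 2 had a median of -0.50, and with that median taken out the change was 1.01 (adjusted p = 0.000151). Mmp11, stromelysin-3, had 12.5, 12.9, 11.5 and 10.4 CPM in G9a_KO libraries, against 5.95, 7.35, 6.52 and 7.13 CPM in WT libraries. It rose by 0.81 ± 0.10 on the log2 scale (edgeR, adjusted p = 2.35e-05), without overlap. Mmp28, epilysin, had 2.38, 2.30, 1.83 and 1.37 CPM in G9a_KO libraries, against 0.49, 0.30, 0.51 and 0.51 CPM in WT libraries. It was low in both groups and 4.35-fold higher in the knockout (log2 fold change 2.12 ± 0.27; edgeR, adjusted p = 2.55e-05).

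Mmp19, which cuts basement membrane proteins, had 3.48, 3.03, 3.38 and 3.28 CPM in G9a_KO libraries, against 4.67, 4.92, 4.84 and 5.76 CPM in WT libraries. Every G9a_KO library was lower (-0.62 ± 0.12; edgeR, adjusted p = 0.001). Its exons share 789 bases with Tmem198b on the opposite strand, which stood at 29.9 CPM in G9a_KO and 38.4 CPM in WT libraries, and whether reads of Tmem198b entered Mmp19 was not tested. Mmp24, the membrane-anchored MT5-MMP, was not called at 0.82 CPM in G9a_KO and 0.74 CPM in WT libraries (0.15 ± 0.38; adjusted p = 0.783). Mmp25, the membrane-anchored MT6-MMP, missed the filter, with 0 counts in each G9a_KO library against 28, 11, 12 and 4 counts in WT libraries. Tested without that filter it was called lower (edgeR, adjusted p = 0.00445), but it enters such a fit through its WT counts alone, so the call adds nothing to the counts themselves. A count of 0 allows up to 3 counts in a library, which is 0.04 to 0.0515 CPM.

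**Figure D3:**
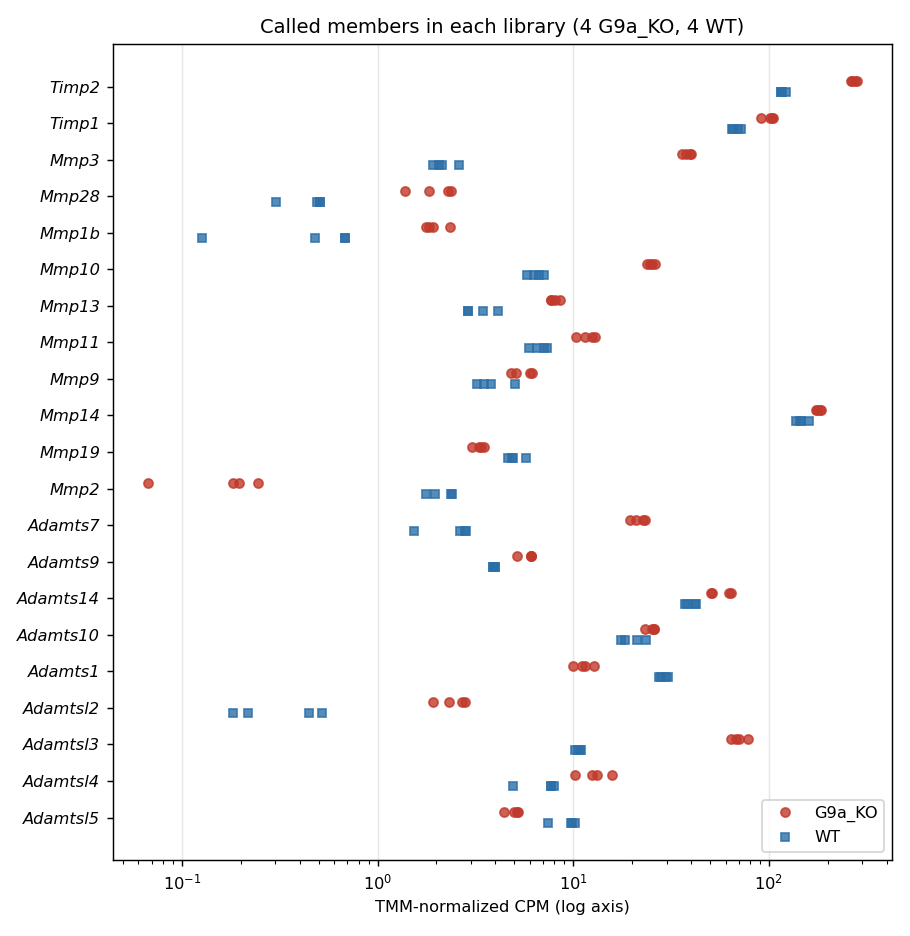
TMM-normalized CPM on a log axis in each of 4 G9a_KO (red circles) and 4 WT libraries (blue squares) for 21 of the 22 called genes. Adamts8 is left out because its mean was under 1 CPM in both groups. The libraries of Mmp3, Adamts7 and Adamtsl3 form separate groups with G9a_KO to the right, Mmp2 is separated with G9a_KO to the left, and Mmp9 and Adamts10 overlap.

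Of the 8 tested ADAMTS genes, 5 were higher, 1 lower and 2 not called. Adamts7 (chr9:90163069-90208071, + strand), outside the MMP cluster, encodes a protease that cuts cartilage oligomeric matrix protein and had 20.9, 23.1, 19.4 and 22.6 CPM in G9a_KO libraries, against 2.63, 2.80, 1.54 and 2.83 CPM in WT libraries. It was 8.80-fold higher (log2 fold change 3.14 ± 0.16; edgeR, adjusted p = 6.17e-09), the largest change among the ADAMTS genes. Adamts14, a procollagen N-proteinase, had 51.2, 64.3, 50.7 and 62.1 CPM in G9a_KO libraries, against 42.5, 38.2, 37.3 and 42.1 CPM in WT libraries. The groups did not overlap and the log2 fold change was 0.51 ± 0.08 (edgeR, adjusted p = 2e-04). Adamts9, which cuts versican and aggrecan, had 6.06, 6.08, 5.16 and 6.11 CPM in G9a_KO libraries, against 3.96, 3.96, 3.90 and 3.89 CPM in WT libraries (0.58 ± 0.11; edgeR, adjusted p = 0.000725). Adamts10, which binds fibrillin-1, had 25.2, 25.9, 23.2 and 25.9 CPM in G9a_KO libraries, against 23.5, 17.5, 21.1 and 18.4 CPM in WT libraries, and the groups overlapped (0.32 ± 0.09; edgeR, adjusted p = 0.00983). Its call was lost when transcripts annotated as protein coding were counted alone (0.10, adjusted p = 0.728).

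Adamts8 rested on 15, 23, 9 and 28 counts in G9a_KO libraries, against 5, 0, 0 and 6 counts in WT libraries. Its log2 fold change of 2.59 ± 0.84 passed narrowly (edgeR, adjusted p = 0.0222) and did not pass without G9a_KO replicate 2 or 4 or WT replicate 2 or 3 (adjusted p between 0.0565 and 0.0733). Adamts1 (chr16:85793827-85803113, - strand), which cuts versican and aggrecan, was the ADAMTS gene that fell, with 11.5, 9.94, 11.1 and 12.8 CPM in G9a_KO libraries, against 30.5, 27.5, 28.0 and 29.9 CPM in WT libraries. Its log2 fold change was -1.35 ± 0.08 (edgeR, adjusted p = 2.91e-08). The 20 other tested genes within 5 Mb on chromosome 16 had a median of -0.94, and with that median taken out Adamts1 was at -0.42 (adjusted p = 0.000931). Adamts5, the aggrecanase that is the neighbor of Adamts1, had 0 counts in all 8 libraries. Adamts4, an aggrecanase, was not called at 36.8 ± 2.22 CPM in G9a_KO and 35.5 ± 5.01 CPM in WT libraries (0.053 ± 0.09; adjusted p = 0.673). Adamts6, a close homologue of Adamts10, was not called at 2.05 ± 0.63 and 2.65 ± 0.76 CPM in G9a_KO and WT libraries (-0.37 ± 0.26; adjusted p = 0.257).

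The ADAMTS-like genes, which encode matrix glycoproteins without protease activity, included Adamtsl2 and Adamtsl3 at 7.15-fold and 6.58-fold higher. Adamtsl3 (chr7:82335694-82614450, + strand) had 70.2, 78.3, 63.8 and 68.1 CPM in G9a_KO libraries, against 10.2, 10.8, 11 and 10.5 CPM in WT libraries. It was 6.58-fold higher (log2 fold change 2.72 ± 0.07; edgeR, adjusted p = 1.49e-11), with groups far apart. Adamtsl2, which binds fibrillin and latent TGF-beta binding protein 1, had 2.33, 1.92, 2.81 and 2.69 CPM in G9a_KO libraries, against 0.52, 0.18, 0.22 and 0.44 CPM in WT libraries (2.84 ± 0.32; edgeR, adjusted p = 9.17e-06). Between 55.3% and 88.7% of its counts in G9a_KO libraries, and between 53.1% and 100% in WT libraries, belonged to a transcript annotated as retaining an intron. Adamtsl4, a fibrillin-1 binding protein of the eye's zonules, had 12.5, 15.8, 10.3 and 13.2 CPM in G9a_KO libraries, against 7.68, 7.73, 4.93 and 7.97 CPM in WT libraries (0.87 ± 0.16; edgeR, adjusted p = 0.000495). Adamtsl5, whose protein also binds fibrillin, was lower, with 5.23, 5.14, 4.99 and 4.42 CPM in G9a_KO libraries, against 9.71, 7.40, 9.84 and 10.2 CPM in WT libraries (-0.91 ± 0.12; edgeR, adjusted p = 3.2e-05). That call was lost with protein-coding transcripts alone (-0.49, adjusted p = 0.491), and most of its counts lay on transcripts annotated with a retained intron.

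Of the 25 genes that were not tested, 11 had 0 counts in all 8 libraries: Adamts2, Adamts5, Adamts15, Adamts18, Adamts19, Adamts20, Adamtsl1, Mmp7, Mmp8, Mmp16 and Mmp20. The other 14 had at most 28 counts in a library. They were Timp3, Timp4, Mmp12, Mmp15, Mmp17, Mmp21, Mmp23, Mmp25, Mmp27, Adamts3, Adamts12, Adamts13, Adamts16 and Adamts17. Adamts13, the von Willebrand factor protease that liver stellate cells make, had 2 counts over G9a_KO and 0 over WT libraries. A 0 in this table does not show that a gene is silent: Itgb1, an integrin chain that nearly every adherent cell uses, was also listed at 0 in all 8 libraries.

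The shift of a gene's neighbors was small for most of the 25 genes. Their neighbors within 5 Mb had medians between -0.074 and 0.17 except around Adamts1 (-0.94), Mmp24 (-0.57) and Mmp9 (-0.50). With these medians taken out, 18 genes were still higher and 4 lower, and the 22 called genes were the same ones. Here and wherever a median was taken out, it was a fixed value from the same libraries. Its own error and the spread among neighbors do not enter the adjusted p.

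**Figure D4:**
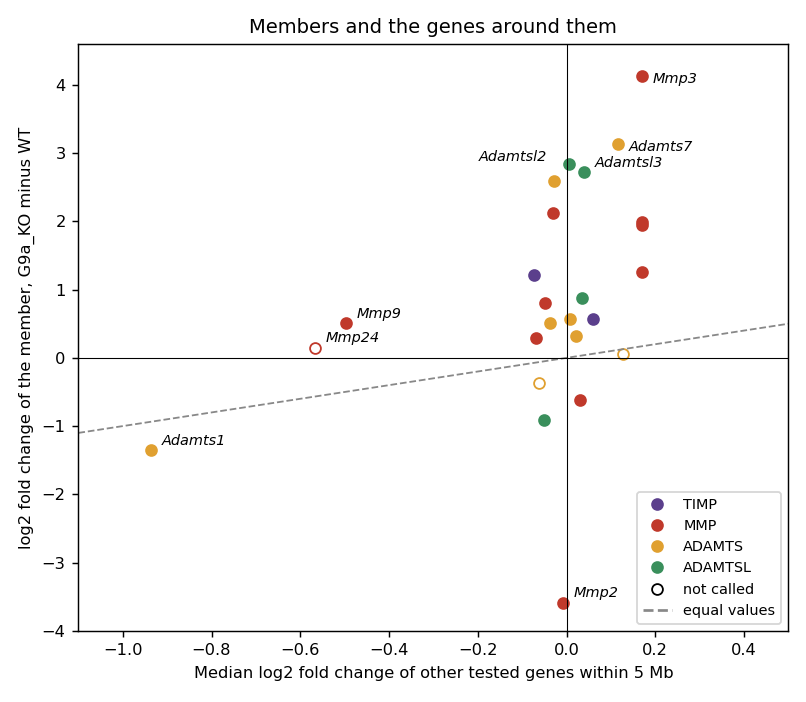
Log2 fold change (G9a_KO minus WT) of each of the 25 tested genes (y axis) against the median log2 fold change of the other tested genes within 5 Mb (x axis), colored by family, with open points for genes not called and a dashed line of equal values. Adamts1, Mmp24 and Mmp9 lie to the left at -0.94, -0.57 and -0.50, and the genes with the largest changes, Mmp3 and Mmp2, have neighbors near 0 (0.17 and -0.0078).

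Levels of different genes were compared per transcript length, in transcripts per 1000000 (TPM). In G9a_KO libraries the order was Timp1 (235 ± 7.73 TPM), Timp2 (149.8 ± 9.02), Mmp14 (143 ± 7.55), Mmp3 (43.3 ± 1.40), Mmp10 (29.6 ± 0.89), Adamts14 (22.5 ± 3.24) and Adamtsl3 (21.8 ± 2.77). The ranges of Timp2 and Mmp14 overlapped in G9a_KO libraries. Within each G9a_KO library Timp2 stood above Mmp14, by little in replicate 4 (144.8 against 143.9 TPM). The ranges of Adamts14 and Adamtsl3 also overlapped, and which of them was higher differed between libraries. In WT libraries Timp1 also came first (153 ± 6.40 TPM), and Mmp14 (112 ± 7.74) stood above Timp2 (61.3 ± 1.80) without overlap. Mmp3 ranked 4 in G9a_KO and 16 in WT libraries, where it had 2.35 ± 0.33 TPM. Adamtsl3 ranked 7 and 12, and Adamts7 ranked 11 and 20. Mmp2 ranked 26 in G9a_KO and 17 in WT libraries, and Adamts1 ranked 14 and 6.

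Summed over each family, TIMP RNA was 384 ± 3.99 TPM in G9a_KO and 214 ± 6.02 TPM in WT libraries. The MMP sum was 244 ± 8.82 TPM in G9a_KO and 139 ± 7.72 TPM in WT libraries. The ADAMTS sum was 69.9 ± 6.91 and 55.9 ± 4.62 TPM, and the ADAMTSL sum 33.7 ± 4.39 and 12.9 ± 0.89 TPM, in G9a_KO and WT libraries. No family's sums overlapped between the groups. The ratio of TIMP to MMP RNA lay between 1.508 and 1.627 in G9a_KO libraries and between 1.5 and 1.608 in WT libraries, and these ranges overlapped. RNA levels give no measure of active enzyme.

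**Figure D5:**
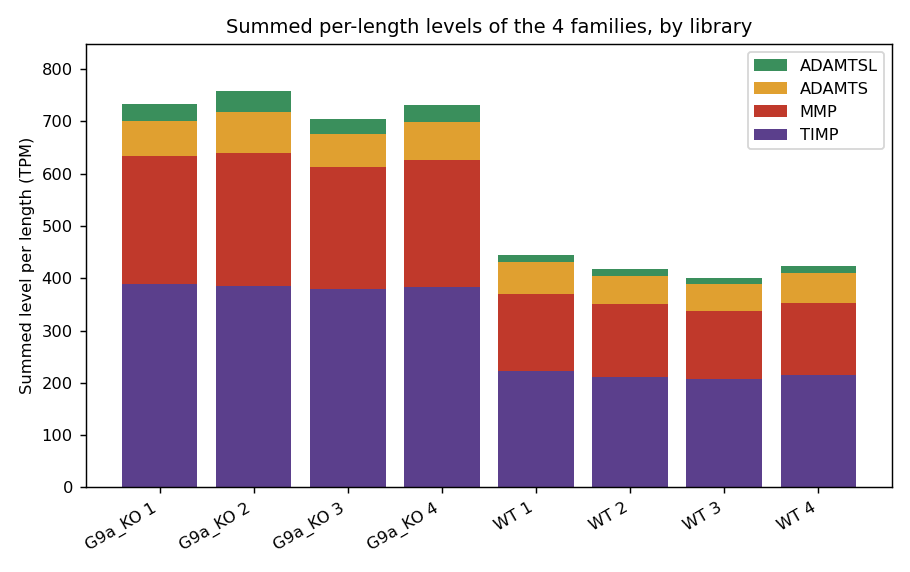
Summed per-length level (TPM, axis from 0) of the TIMP, MMP, ADAMTS and ADAMTSL genes in each library, stacked, with 4 G9a_KO libraries left of 4 WT libraries. The stacks total 704.8 to 757.2 TPM in G9a_KO libraries and 400.6 to 445.3 TPM in WT libraries, and TIMP genes make up 50.8% to 53.9% of the G9a_KO stacks and 49.9% to 51.9% of the WT stacks.

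Because the table lists transcripts, the make-up of each gene could be followed. Mmp3, Mmp10, Mmp13, Mmp1b, Mmp2 and Mmp19 were each listed with only 1 transcript, so their shares could not vary. Adamts7 was listed with several transcripts. Its main transcript in WT libraries, Adamts7-201, held 37.9% to 49.2% of the counts in G9a_KO libraries, against 86.3% to 96.2% in WT libraries. Adamts7-204, annotated as a target of nonsense-mediated decay, had 294 to 499 counts in G9a_KO libraries and 0 in each WT library. Adamts7-207 had 57 to 296 counts in G9a_KO libraries and also 0 in each WT library. Adamts7-201 itself had 487 to 790 counts in G9a_KO libraries, against 98 to 178 counts in WT libraries. These shares were not tested, and such splits can be unstable within a group. In Timp1, the transcript Timp1-201 held between 8.33% and 34.9% of the counts in G9a_KO libraries and between 24.5% and 76.5% in WT libraries. Exons of Adamts7 share 122 bases with Tbc1d2b on the opposite strand (17.7 CPM in G9a_KO and 12 CPM in WT libraries). Other genes with shared exon bases on the opposite strand included Mmp24 (637 with BC029722), Mmp28 (466 with 1700020L24Rik), Mmp11 (155 with Chchd10) and Adamts9 (1381 with A730049H05Rik, which had hardly any counts). Whether counting used strand is not known from the sources used here.

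Genes that act with these families were described from 9 lists with 85 tested genes, of which 44 were higher and 21 lower in G9a_KO libraries (edgeR, adjusted p under 0.05 over all genes tested), beside 23.6% higher and 23.6% lower among all genes tested. The lower genes were thus near the share over all genes, and each list below is to be read against those shares. Genes of the fibrillin microfibril and elastic fibre were higher in 12 of 14 cases and lower in 2, with a median log2 fold change of 1.14. They were listed together whether or not ADAMTSL proteins bind each product. Efemp2, 1 of the 12, rose by 0.13 ± 0.05 with overlapping groups (edgeR, adjusted p = 0.0396). Its call was lost with a replicate block and with a filter of at least 1 read. It was also lost without G9a_KO replicate 1, 3 or 4 or WT replicate 2, 3 or 4. Fbn1, fibrillin-1, had 9.15 ± 1.1 CPM in G9a_KO against 2.41 ± 0.31 CPM in WT libraries, beside neighbors at a median of -0.53. The collagen and elastin crosslinking enzymes Loxl2, Loxl3 and Loxl4 were higher by 1.25 ± 0.05, 1.69 ± 0.07 and 1.13 ± 0.07, and Ltbp1, which anchors latent TGF-beta, by 0.95 ± 0.05. Fbln1 (-0.44 ± 0.05) and Fbn2 (-1.09 ± 0.33) were lower, and the call of Fbn2 was lost without WT replicate 1 (-0.82, adjusted p = 0.0566). Elastin (Eln) and Lox were listed at 0 in all libraries.

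The procollagen C-proteinase Bmp1 and its enhancers rose in 3 of 3 cases. Pcolce, the enhancer, had 633 ± 30.6 CPM in G9a_KO against 259 ± 22.4 CPM in WT libraries (1.29 ± 0.06), and Bmp1 itself was higher by 0.39 ± 0.05. Neighbors of Pcolce and Bmp1 had medians of 0.32 and 0.16. In the plasminogen activation system, whose plasmin can activate proMMPs, 7 of 10 genes were higher, 0 lower and 3 not called. These included the activators Plat (0.84 ± 0.05) and Plau (0.47 ± 0.05) and the activator inhibitors Serpinb2 (2.05 ± 0.13) and Serpine2 (0.81 ± 0.05). The neighbors of these genes had medians of 0.29, -0.022, 0.31 and 0.08, in that order. Plg, plasminogen itself, was listed at 0. Among genes of MMP activation, surface control and clearance, 6 of 12 were higher and 4 lower, and with library totals 2 were lower. With a mean of at least 1 CPM, 4 of 10 were higher and 3 lower. Hpx had 1.36 CPM in G9a_KO and 0.089 CPM in WT libraries, and Tfpi2 had 0.37 and 0 CPM. In WT libraries both averaged under the filter's 0.148 CPM, so these higher genes could pass it through G9a_KO alone. The convertase Pcsk7 (0.80 ± 0.09) and the heme carrier hemopexin, Hpx (3.92 ± 0.52), were higher, and Cd44, which holds MMPs at the surface, was lower (-0.48 ± 0.06, beside neighbors at -0.47, and not called at -0.0082 with their median taken out). Furin, the convertase that activates proMMP14, was not called (290.5 ± 11.4 CPM in G9a_KO and 296.9 ± 20.7 CPM in WT libraries), and Reck, a membrane inhibitor of MMPs, was not called (0.40 ± 0.20; edgeR, adjusted p = 0.131).

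Substrates did not move one way. Among hyalectans and other proteoglycans, 1 of 6 was higher and 1 lower. The count of higher genes was 3 with library totals and upper quartile scaling, 2 with DESeq2, with limma-voom and without G9a_KO replicate 3, WT replicate 1 or WT replicate 3, and 0 with a mean of at least 1 CPM. Bcan and Hspg2 were the genes added, and Bgn the one too low to test. Vcan, versican, the substrate of Adamts1 and Adamts9, had 40.9 ± 4.5 CPM in G9a_KO against 75.7 ± 6.93 CPM in WT libraries (-0.89 ± 0.08), and Bgn, biglycan, had 0.98 and 0.20 CPM in G9a_KO and WT libraries (2.26 ± 0.37). Of 8 other ADAMTS substrates, 3 were higher and 3 lower. Fn1, fibronectin, was higher by 1.25 ± 0.09 and Thbs2 by 1.01 ± 0.07, while Thbs1 was lower (-0.77 ± 0.10, with neighbors at a median of -0.60, and not called at -0.17 with that median taken out), as was Thbs3 (-0.43 ± 0.05). Enzymes that add O- or C-linked sugars to proteins were higher in 5 of 6 cases. B3glct was at 0.97 ± 0.06 beside neighbors at 0.41, Pomt2 at 0.79 ± 0.07 beside neighbors at 0.27, and Dpy19l3 at 0.62 ± 0.09 beside neighbors at -0.13. Pomt1 passed narrowly (0.21 ± 0.08; edgeR, adjusted p = 0.0448) and lost its call with a replicate block (adjusted p = 0.0572). The count of higher genes was 4 with a replicate block and 6 with library totals. Of 7 tested ADAM genes, 4 were higher, led by Adam9 (0.84 ± 0.05, beside neighbors at 0.31). The meprin genes of that list did not pass the filter. Adam15 was lower (-0.16 ± 0.05), a call lost with library totals and upper quartile scaling. It was also lost without G9a_KO replicate 1 (edgeR, adjusted p = 0.0519), G9a_KO replicate 3 (0.0511) or WT replicate 4 (0.0524). With protein-coding transcripts alone Adam15 was at 0.023 (adjusted p = 0.779).

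Among 19 genes of factors known to act on MMP and TIMP promoters (AP-1, ETS, RUNX and others), 3 were higher and 10 lower, with a median log2 fold change of -0.23. With the medians of their neighbors taken out, 5 were higher and 8 lower. The AP-1 genes Fosb (-0.73 ± 0.11), Fosl1 (-0.30 ± 0.04), Fosl2 (-0.27 ± 0.08) and Jund (-0.23 ± 0.06) were lower and Jun (0.24 ± 0.07) was higher. The call of Jun was lost without WT replicate 3 (adjusted p = 0.0558) and with its neighbors' median taken out (0.049, adjusted p = 0.624), and that of Fosl2 without G9a_KO replicate 1 (adjusted p = 0.0505) and with library totals or upper quartile scaling. Fos (0.16 ± 0.15) and Junb (0.044 ± 0.05) were not called. Sp1, which binds GC boxes, was lower (-0.47 ± 0.06), as was Ets1 (-0.29 ± 0.05), and Elk3 was higher (0.34 ± 0.05).

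Markers of cell types were checked. Of 12 hepatocyte markers, 11 were in the table and 1 was tested (Apoa2, not called, 0.89 CPM in G9a_KO and 1.0 CPM in WT libraries). Apoa1, Apob, Apoc3 and Cps1 had few counts, with means of at most 0.11 CPM. Alb, Ttr, Fga, Fgb, Serpina1a and Cyp2e1 were at 0, which, as for Itgb1, does not show that they are silent. The 11 markers summed to 0.74 to 1.49 CPM in G9a_KO libraries and 0.696 to 1.71 CPM in WT libraries. Of 8 tested fibroblast and stellate cell markers, 6 were higher. Acta2, 1 of the 6, had 0.85 CPM in G9a_KO and 0.094 CPM in WT libraries, so it could pass the filter through G9a_KO alone. Fibroblast and stellate cell markers summed to 578 to 622 CPM in G9a_KO libraries and 221 to 236 CPM in WT libraries, with Col3a1 at 429 CPM in G9a_KO and 107 CPM in WT libraries and Pdpn at 154.7 and 116 CPM. Lum was at 0, Dcn and Thy1 were at most 0.036 CPM on average, and Pdgfra and Pdgfrb were not called. Many of the genes described are also made by fibroblasts, and the part of such cells in these results was not tested. Of 4 tested macrophage and neutrophil markers, 2 were higher, as was 1 of 5 tested endothelial markers. Macrophage and neutrophil markers summed to 11.3 to 12.7 CPM in G9a_KO and 7.14 to 11.8 CPM in WT libraries, with Adgre1, Itgam, Marco, S100a8 and S100a9 at 0. Endothelial markers summed to 5.43 to 7.52 and 3.59 to 5.12 CPM, and T and B cell markers to 1.52 to 2.42 and 1.51 to 2.20 CPM, in G9a_KO and WT libraries.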

How the data were processed

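Poly-A RNA of 4 G9a_KO and 4 WT libraries of Hepa 1-6 was measured. The deposited table held raw counts per transcript, not normalized, in 8 columns that all belong to the 8 samples per the file headers. Tools named in the submitters' processing notes are HISAT2, Trimmomatic and FastQC, without versions, and the build is GRCm38.p6. Not given in the sources used here are how reads were counted, with or without strand, and on which annotation.

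The design had assumed counts per gene, so transcript counts were summed per gene with GENCODE mouse release 21, which matched 114332 of 115220 transcripts. The other 888 were left out. Reads of similar copies or overlapping genes may have been shared. Library totals were 58256100 to 75025236 counts, and limits from a count of 0 cover counting error only.

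G9a_KO was compared with WT by edgeR 4.0.16's quasi-likelihood test (R 4.3.3), TMM, filterByExpr, genotype as the only term, two-sided, with Benjamini-Hochberg adjustment over 15840 genes. SE was taken as the absolute log2 fold change over the root of F. "Rose", "fell", "higher", "lower" and "called" mean an adjusted p under 0.05. TPM was each transcript's count per kb, scaled to 1000000 per library and summed per gene. Promoters are RefSeq's, on GRCm38.p6, and some of them, such as that of Mmp11, lie inside the GENCODE gene. The code was tested on simulated data.

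The family genes and the lists were chosen with earlier results of these data known. Per-library values are given for called genes of at least 1 CPM in the higher group, and means for those not called. Values of Adamts8, Mmp25, Casp4, Casp12, Itgb1 and of transcripts were chosen after they were seen. From the lists, up to 4 called genes of lowest p were named, and others by their role after their values were seen. The alternatives were other scalings, filters, tests (DESeq2 1.42.0 and voom of limma 3.58.1), transcripts and lengths, a replicate block, a correction for neighboring genes, a 2-fold limit and leaving out each library. Tables and figures were made with Python 3.11.15.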

Additional observations from a re-analysis of the deposited data

Results flagged for a closer look

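Among 42 groups of 4 libraries of the called genes, 4 held a library set apart from the other 3 by most of the group's range. Chance gives such a gap in about 1 in 20 groups. The level of Adamts9 was 5.16 CPM in G9a_KO replicate 3, against 6.06 to 6.11 CPM in the other G9a_KO libraries. Adamts7 was at 1.54 CPM in WT replicate 3, against 2.63 to 2.83 CPM in the other WT libraries, and Adamtsl4 was at 4.93 CPM in the same library, against 7.68 to 7.97 CPM. Mmp28 was at 0.303 CPM in WT replicate 2, against 0.489 to 0.508 CPM in the other WT libraries. The calls of these 4 genes were the same with any 1 library left out.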

How the results depend on the processing

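Of the 22 called genes, 19 kept their direction and call in each of up to 18 alternatives in which they could be fitted. Adamts10 and Adamtsl5 were exceptions with protein-coding transcripts alone, and Adamts8 with a filter of at least 1 read (2.58, adjusted p = 0.0775) and without 4 of the single libraries; with a mean of at least 1 CPM Adamts8 could not be fitted. Leaving out 1 library gave 17 to 18 genes higher and 4 to 5 lower, and the fifth lower gene was Mmp25, which had 0 counts in every G9a_KO library and then passed the filter through its WT counts alone. With protein-coding transcripts alone 16 were higher and 3 lower, and Adamtsl2 could not be fitted. The direction of genes that were not called changed for Adamts4 (-0.075 with the neighbors' median taken out; -0.035 to 0.11 with 1 library left out) and Mmp24 (-0.056 to 0.51 with 1 library left out).

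Asking for at least 2-fold left 10 higher and 2 lower. With counts divided by the longest transcript, Timp1 was at 262 TPM in G9a_KO and 169 TPM in WT libraries, Timp2 at 169 and 69.4 TPM and Mmp14 at 159.9 and 124 TPM, in the same order as before.

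The replicate numbers of the titles did not pair the libraries: correlations of same-numbered deviations were between -0.0226 and 0.0751. Not every library correlated best with its own number. With a replicate block, 18 genes were higher and 4 lower, no call of the 25 changed, and 3643 of all genes were higher and 3612 lower.

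Counts of small lists moved. The 4 lower genes of MMP activation and control became 2 with library totals and with the neighbors' median taken out, and Itgb3, 1 of the 4, lost its call under most alternatives. With the neighbors' median taken out, the 3 higher promoter factor genes became 5 and the 10 lower became 8. Runx1 then went from lower to higher (0.75, edgeR adjusted p = 2.74e-06), and Snai1 lost its call (0.14, adjusted p = 0.225). These fits treat the median as known, so its error is not in the adjusted p. Genes under about 0.148 CPM were left out by the filter, while the depth allowed a limit of 0.04 to 0.0515 CPM from a count of 0.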
